A study of Mus musculus and Homo sapiens with 22 samples.

Results

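Mycn and 7 further transcription factor genes of the sympathetic neuroblast were followed through the 6 RNA-seq files of N2A cells, a mouse neuroblastoma line. The 8 genes, Mycn, Myc, Phox2a, Hand2, Gata2, Gata3, Isl1 and Tfap2b, were taken by name from the 22667 genes listed in each file, and each name matched 1 Ensembl identifier. The identifiers were ENSMUSG00000037169 for Mycn, ENSMUSG00000022346 for Myc, ENSMUSG00000007946 for Phox2a, ENSMUSG00000038193 for Hand2, ENSMUSG00000015053 for Gata2, ENSMUSG00000015619 for Gata3, ENSMUSG00000042258 for Isl1 and ENSMUSG00000025927 for Tfap2b. The study asked how the splicing regulators nSR100, Ptbp1 and U2af65 act, and what is described below is the total read count of each gene, which says nothing of how its transcripts were spliced. The siRNA groups were cells transfected with a pool against U2af65 (siU2af65, 1 library, letter a), cells transfected with a pool against Ptbp1 (siPtbp1, 1 library, letter b), and cells given a non-targeting pool (siCtrl, libraries a and b), all harvested 48 hours after transfection. The hairpin groups were stable lentiviral populations kept under 2 ug/mL puromycin that carried a hairpin against the 3′ UTR of nSR100 (shnSR100, 1 file) or against GFP (shGFP, 1 file). Each hairpin file pooled 2 sequencing runs, so neither has a replicate. All 6 files came from this 1 tumour line, and no normal sympathetic cell was among them.

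These genes encode the factors that specify noradrenergic neurons from neural crest cells. Phox2a is a homeodomain protein, Hand2 is a basic helix-loop-helix protein, Gata2 and Gata3 are zinc finger proteins, Isl1 is a LIM homeodomain protein and Tfap2b is an AP-2 protein. In neuroblastoma many of them bind the enhancers of one another's genes and of their own, which is called a core regulatory circuit. Mycn and Myc encode related proteins that pair with Max on E-box sequences and drive growth genes. MYCN is the gene amplified in many high-risk human neuroblastomas, and other tumours express MYC in its place.

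Short stretches of promoter are shown because each carries letters that a factor of this circuit is known to bind. Promoter windows were 250 bases before to 50 after the gene start, from RefSeq on GRCm38.p6. Of the 8 genes 7 had an entry, and Gata2 had 2 entries, so there were 8 windows. Capitals mark the motif, and positions are counted from the gene start.
Isl1 at position -115, TGATAA, GRCm38.p6 chr13:116309786-116309815, minus strand: ggggctgaaataTGATAAtcagaacagctg
Gata2 at position -222, GCCNNNGGC, GRCm38.p6 chr6:88198432-88198461, plus strand: tgcagggtctGCCCACGGCgaaggtcccct
Gata3 at position -246, GCCNNNGGC, GRCm38.p6 chr2:9878821-9878850, minus strand: ccctGCCCGCGGCccctctgccctaggcgg

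Both strands were searched in all 32851 windows. The GATA letters AGATAA and TGATAA each stood in 2 of the 8 windows, those of Hand2 and Isl1, against 11.2% and 9.05% of all windows. The homeodomain letters TAATTA occurred in the Hand2 window, where they overlapped AGATAA. That was 1 of the 8 windows, against 5.29% of all. The AP-2 letters GCCNNNGGC stood in 2 of the 8 windows, against 16.6% of all, and those of Gata3 occurred there 3 times. CATCTG, an E-box that Hand2 and its partners bind, stood in 2 of the 8 windows, Hand2 and Mycn, against 17.2% of all. The E-box CACGTG of Myc and Max stood in 0 of the 8 windows and in 7.15% of all. These matches describe letters in the reference genome, and no binding to them was measured.

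Reads in genes ran from 60220620 to 77138004 per file. U2af2, which encodes U2af65, had 2699 reads in siU2af65, against 15511 and 17406 in controls a and b. Ptbp1 had 1827 reads in siPtbp1, against 30897 and 32747 in controls a and b. Srrm4, which encodes nSR100, had 1365 reads in shnSR100, against 5203 in shGFP. Between control b and control a, 194 genes were 2-fold or more apart when compared as log2(RPKM + 1). The siPtbp1 library gave a count of 69 when set beside control b, and of 263 with control a. For siU2af65 these counts were 668 with control b and 1155 with control a. By this measure the controls differed more from each other than siPtbp1 did from control b. The cause was not tested. RPKM are reads per kilobase of gene length, scaled to the reads of the library. Of 10 pan-neuronal markers 8 were at 1 RPKM or more in every file, and Dcx and Rbfox3 were under 1 RPKM in all 6. The other marker lists were low, with summed levels of 3.64 to 8.76 RPKM for Schwann and glial genes, 8.94 to 28.98 RPKM for fibroblast genes, 7.12 to 12.8 RPKM for immune genes and 6.38 to 24.8 RPKM for endothelial and epithelial genes. Under 1 RPKM in all 6 files were 7 of 10 Schwann and glial, 6 of 10 fibroblast, 8 of 10 immune and 7 of 10 endothelial and epithelial markers. Sox10, Col1a1, Ptprc and Cdh5 were among these. Others were expressed in every file, such as S100a4 (6.02 to 14.3 RPKM), Coro1a (3.78 to 11.5 RPKM), Pecam1 (4.54 to 9.15 RPKM) and Erbb3 (1.03 to 4.59 RPKM). Vwf had 16.5 RPKM in shnSR100 and 14.1 RPKM in shGFP, against 0.48 to 1.23 RPKM in the siRNA libraries.

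None of the 8 genes was absent from N2A cells. Hand2 was the highest in every file and Tfap2b the lowest in every file. By mean RPKM over the 6 files the order was Hand2 (166 ± 37.0), Myc (77.3 ± 32.6), Phox2a (49.9 ± 21.8), Gata2 (39.3 ± 6.41), Mycn (18.6 ± 5.84), Isl1 (13.4 ± 5.14), Gata3 (4.21 ± 1.63) and Tfap2b (1.24 ± 0.483), each with the SD over n = 6 files of 5 groups. Hand2 did not overlap Myc, Gata2 did not overlap Mycn, and Gata3 did not overlap Tfap2b. The other neighbours in this order overlapped: Myc was above Phox2a in 5 of 6 files, Phox2a above Gata2 in 3 of 6, Mycn above Isl1 in 5 of 6 and Isl1 above Gata3 in 5 of 6. Hand2 exceeded at least 97.7% of the genes that had an RPKM in each file. Tfap2b exceeded 42.3% of them in siU2af65 and 45.95% to 51.1% in the other 5 files.

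**Figure D1:**
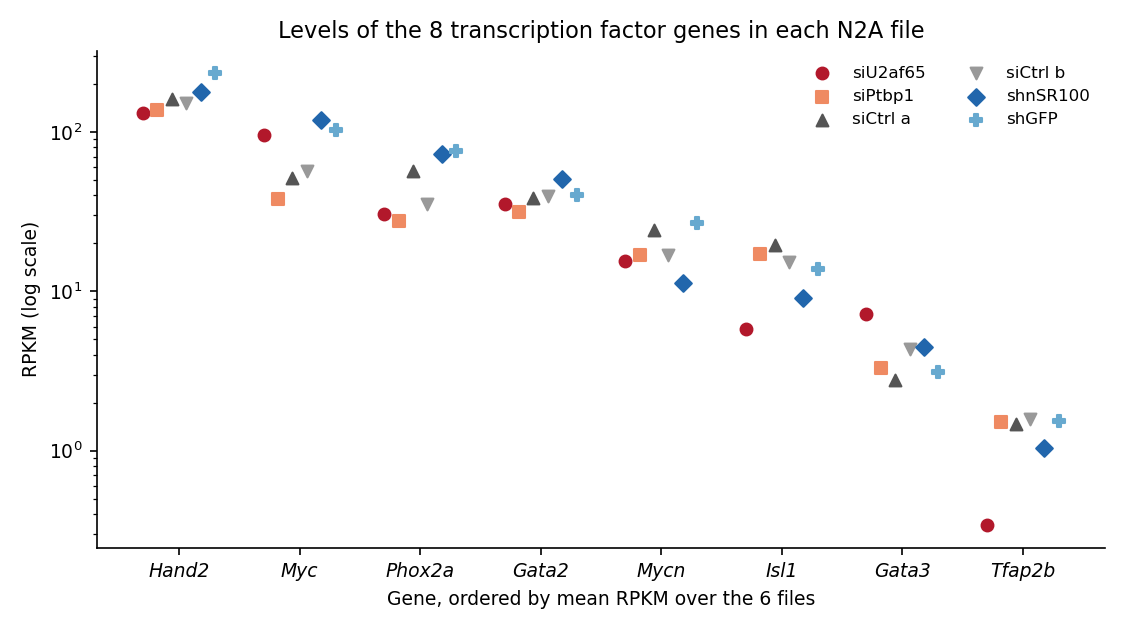
RPKM on a log axis for each gene in each of the 6 N2A files, 1 point per file. Hand2 lies between 133 and 234 RPKM, and Tfap2b between 0.340 RPKM in siU2af65 and 1.57 RPKM in control b.

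U2af65 knockdown left 2 of the 8 genes lower past the test, Isl1 and Tfap2b, while the 5 most abundant genes were not called. Isl1, which is needed for sympathetic and motor neurons to mature, was 3.24-fold lower in siU2af65. Tfap2b, which sustains noradrenergic differentiation, was 4.71-fold lower and ended under 1 RPKM. Myc and Gata3 had positive differences that did not pass. Over all 11237 genes tested, edgeR's quasi-likelihood test called 3.42% lower and 1.82% higher, or 5.24% in either direction, at an adjusted p under 0.05. At an unadjusted p under 0.05, 2 of the 8 were higher and 2 lower, beside 10.5% and 13% of all genes.

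Isl1 stood at 5.79 RPKM in siU2af65 and 17.2 RPKM in siPtbp1, against 19.5 and 15.4 RPKM in controls a and b. It stood at 9.02 RPKM in shnSR100, against 13.8 RPKM in shGFP. The siU2af65 library was the lowest of the 6, and siPtbp1 lay between the controls. On the CPM scale, which sets each count against a library total scaled by TMM, Isl1 was at 13.8 CPM in siU2af65, against 44.6 ± 10.1 CPM in the controls (SD, n = 2). The log2 fold change was -1.70 with an SE of 0.30 (adjusted p = 0.0179 by edgeR), the decrease of rank 118 by size among all genes tested. The difference was -1.91 against control a alone and -1.45 against control b alone.

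Tfap2b rested on few reads: 140 in siU2af65 and 628 in siPtbp1, against 554 and 720 in controls a and b. These reads made 0.340 RPKM in siU2af65 and 1.51 RPKM in siPtbp1, against 1.46 and 1.57 RPKM in controls a and b. It stood at 1.04 RPKM in shnSR100, against 1.53 RPKM in shGFP. The siU2af65 file lay apart below the other 5. Tfap2b was at 1.96 CPM in siU2af65, against 9.26 ± 0.0610 CPM in the controls (SD, n = 2). The log2 fold change was -2.24 with an SE of 0.46 (adjusted p = 0.0295 by edgeR), the decrease of rank 35 by size. The call was also made by DESeq2. It was not made by limma on log2(RPKM + 1), where the difference was -0.91 (adjusted p = 0.168), or on log2(RPKM + 0.1), where it was -1.88 (adjusted p = 0.0809).

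Both calls were lost, as was that of U2af2 itself, when shGFP was added as a further control (adjusted p = 0.395 for Isl1, 0.389 for Tfap2b and 0.389 for U2af2), and edgeR then called no gene in the table. In the alternatives run, the adjusted p lay between 3.81e-07 and 0.395 for Isl1, called in 8 of 9, and between 2.01e-05 and 0.389 for Tfap2b, called in 5 of 8. In the reported fit the spread came from the control pair alone. Fewer cells of a type and less RNA per cell cannot be told apart in bulk samples. Of the 8 expressed pan-neuronal markers 5 were below both controls in siU2af65 and 3 above both. The synaptic gene Snap25 had 58.8 RPKM in siU2af65, against 96.1 and 107 RPKM in controls a and b, and the tubulin gene Tubb3 had 475 RPKM in siU2af65, against 389.6 and 383 RPKM. The summed level of the list was 924 RPKM in siU2af65, against 980.5 and 916 RPKM in controls a and b. Their part in the values of Isl1 and Tfap2b was not tested.

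Myc, the broadly expressed paralog of Mycn, stood at 95.2 RPKM in siU2af65 and 38.1 RPKM in siPtbp1, against 51.8 and 56.9 RPKM in controls a and b. The controls were close to each other, siU2af65 lay above both and siPtbp1 below both. The log2 difference of siU2af65 from the controls was 0.71 (SE 0.20, edgeR adjusted p = 0.0708) and did not pass. It passed in edgeR when libraries were scaled by their totals alone (0.81, adjusted p = 0.00625) and in limma on log2(RPKM + 1) (0.80, adjusted p = 0.00365), and its adjusted p lay between 0.00365 and 0.783 in the alternatives. The median of all genes lay 0.10 higher with either scaling than with TMM.

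Mycn stood at 15.4 RPKM in siU2af65 and 16.8 RPKM in siPtbp1, against 24.3 and 17.0 RPKM in controls a and b. Both knockdown libraries were just under control b, and control a stood above all 3. The log2 difference was -0.53 in siU2af65 (SE 0.29, edgeR adjusted p = 0.297), with -0.82 against control a alone and -0.18 against control b alone. Control b was lower than control a by 0.63 on the log2 scale, a gap wider than that of 90.5% of the genes tested.

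Phox2a, whose protein switches on the noradrenaline synthesis genes, stood at 30.8 RPKM in siU2af65 and 27.5 RPKM in siPtbp1, against 56.6 and 35.1 RPKM in controls a and b. Both knockdowns lay under both controls, but the controls were 0.80 apart on the log2 scale, further than 95.1% of genes. The log2 difference was -0.69 in siU2af65 (SE 0.32, edgeR adjusted p = 0.227), with -1.04 against control a alone and -0.23 against control b alone. Inppl1, a lipid phosphatase gene, overlaps it in the RefSeq annotation, and whether reads were assigned by strand is not given in the sources used here. Inppl1 stood at 33.2 RPKM in siU2af65 and 26.4 RPKM in siPtbp1, against 32.4 and 29.3 RPKM in controls a and b. In the hairpin files it stood at 52.9 RPKM in shnSR100 and 43.1 RPKM in shGFP. Its part in the Phox2a values was not tested.

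Hand2, which is required for noradrenergic neurons to form and persist, stood at 133 RPKM in siU2af65 and 138 RPKM in siPtbp1, against 161 and 152 RPKM in controls a and b. Both knockdowns were under both controls. The log2 difference was -0.34 in siU2af65 (SE 0.25, edgeR adjusted p = 0.444). Gata2, which acts early in sympathetic and blood progenitors, stood at 35.3 RPKM in siU2af65 and 31.5 RPKM in siPtbp1, against 38.7 and 39.5 RPKM in controls a and b. Its log2 difference was -0.25 in siU2af65 (SE 0.21, edgeR adjusted p = 0.514).

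Gata3, needed for noradrenergic and T cell development, had the most positive difference of the 8 genes after U2af65 knockdown, and it did not pass the test. It had 7.23 RPKM in siU2af65 and 3.30 RPKM in siPtbp1, against 2.79 and 4.37 RPKM in controls a and b. The siU2af65 value was the highest of the 6 files, and siPtbp1 lay between the controls. The log2 difference was 0.92 in siU2af65 (SE 0.36, edgeR adjusted p = 0.160), with 1.21 against control a alone and 0.68 against control b alone. RefSeq places lncRNA genes on or beside Gata3, Gata2 and Hand2. The lncRNA gene 4930412O13Rik, which overlaps Gata3, stood at 1.52 RPKM in siU2af65 and 0.900 RPKM in siPtbp1, against 0.470 and 1.09 RPKM in controls a and b. Another, 9230102O04Rik, stood at 1.66 RPKM in siU2af65 and 0.830 RPKM in siPtbp1, against 0.640 and 1.62 RPKM in controls a and b, level with control b. In shnSR100 and shGFP the first stood at 2.07 and 1.03 RPKM and the second at 2.73 and 2.12 RPKM. The part of these lncRNA genes in the Gata3 values was not tested.

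**Figure D2:**
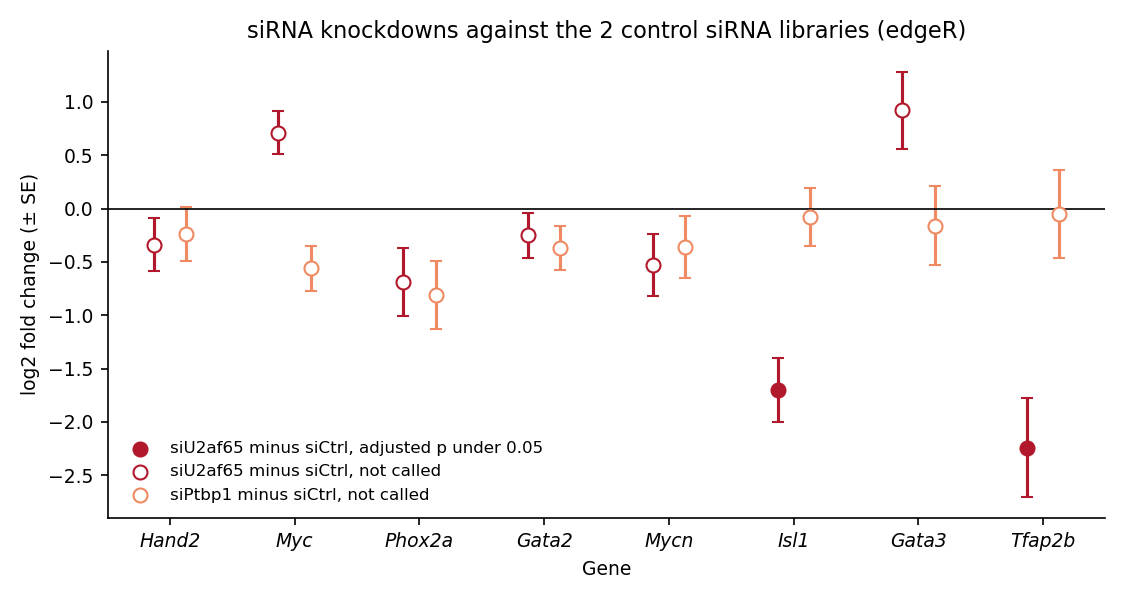
Log2 fold change of each gene, siU2af65 or siPtbp1 against the control siRNA libraries, with bars of ± SE from edgeR (2 control libraries, 1 library per knockdown). Filled points passed an adjusted p of 0.05: Isl1 at -1.70 and Tfap2b at -2.24 in siU2af65.

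After Ptbp1 knockdown edgeR called none of the 8 genes, and all 8 had negative log2 differences, from -0.81 to -0.05. The share called over the 11237 genes was 0.0267%, all of it lower, a background against which 0 of 8 sets nothing apart. At an unadjusted p under 0.05, 2 of the 8 were lower and 0 higher, beside 2.74% and 1.54% of all genes, and DESeq2 and limma on log2(RPKM + 1) called 0. Phox2a differed by -0.81 (SE 0.32, edgeR adjusted p = 0.999), with -1.15 against control a alone and -0.35 against control b alone. Myc differed by -0.56 (SE 0.21, edgeR adjusted p = 0.999), with -0.55 against control a alone and -0.57 against control b alone. Mycn differed by -0.36 (SE 0.29), and by -0.01 against control b alone. Isl1 differed by -0.08 (SE 0.27) and Tfap2b by -0.05 (SE 0.41). Isl1 was positive against control b alone (0.17) and Gata3 against control a alone (0.13), so 7 of 8 were negative against either control by itself. Of the 8 expressed pan-neuronal markers 5 were below both controls in siPtbp1 and 1 above both, and their part in these differences was not tested.

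The knockdowns were also set against each other directly, which needs no shared control level, although the spread again came from the control pair. Of the 8 genes 1 was higher and 2 were lower in siU2af65 than in siPtbp1, where the background was 3.62% called, 1.09% higher and 2.54% lower. Myc was at 209 CPM in siU2af65 against 86.7 CPM in siPtbp1, a log2 fold change of 1.27 with an SE of 0.24 (adjusted p = 0.0264 by edgeR). Isl1 was at 13.8 CPM in siU2af65 against 42.2 CPM in siPtbp1, a log2 fold change of -1.62 with an SE of 0.32 (adjusted p = 0.0293 by edgeR). Tfap2b was at 1.96 CPM in siU2af65 against 8.91 CPM in siPtbp1, a log2 fold change of -2.18 with an SE of 0.50 (adjusted p = 0.0459 by edgeR). The letters a and b separate these libraries as well as the siRNA does, so the knockdown and the letter cannot be told apart in this contrast. All 3 calls were lost with shGFP as an added control, and those of Myc and Isl1 also when genes averaging under 5 RPKM were left out (adjusted p = 0.0522 and 0.0602). In the alternatives the adjusted p lay between 9.59e-06 and 0.599 for Myc, 2.21e-05 and 0.581 for Isl1, and 0.000216 and 0.581 for Tfap2b.

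In stable nSR100 knockdown cells Mycn was the 1 gene of the 8 past 2-fold. Mycn had 2179 reads and 11.3 RPKM in shnSR100, against 4248 reads and 26.9 RPKM in shGFP. Its level in shnSR100 was 42.0% of that in shGFP (95% counting interval 39.8 to 44.2%, exact binomial). The shnSR100 level was the lowest of the 6 files and the shGFP level the highest. The siRNA controls a and b stood between them, at 24.3 and 17.0 RPKM. On the log2(RPKM + 1) scale the difference was -1.18, wider than that of 99.55% of the 11877 genes with at least 1 RPKM in either file, of which 0.615% were lower and 0.303% higher past 2-fold. With 1 file per group this difference has no replicate check, and the interval covers counting error only.

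The other 7 genes lay within 2-fold in the hairpin files. Isl1 was at 65.1% of its shGFP level in shnSR100 (61.0 to 69.5%), Tfap2b at 67.9% (59.9 to 77.1%) and Hand2 at 76.3% (75.0 to 77.5%). Hand2 had 178 RPKM in shnSR100, against 234 RPKM in shGFP. Phox2a was at 95.7% (92.6 to 98.8%), with 73.2 RPKM in shnSR100 against 76.5 RPKM in shGFP. Myc was at 115% (113 to 118%), with 119 RPKM in shnSR100 against 103 RPKM in shGFP. Gata2 was at 125% (122 to 129%), with 50.5 RPKM in shnSR100 against 40.3 RPKM in shGFP. Gata3 was at 144% (130 to 159%), with 4.46 RPKM in shnSR100 against 3.10 RPKM in shGFP. The pan-neuronal markers summed to 520 RPKM in shnSR100, against 907 RPKM in shGFP, with all 8 expressed members lower in shnSR100. Their part in these differences was not tested.

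**Figure D3:**
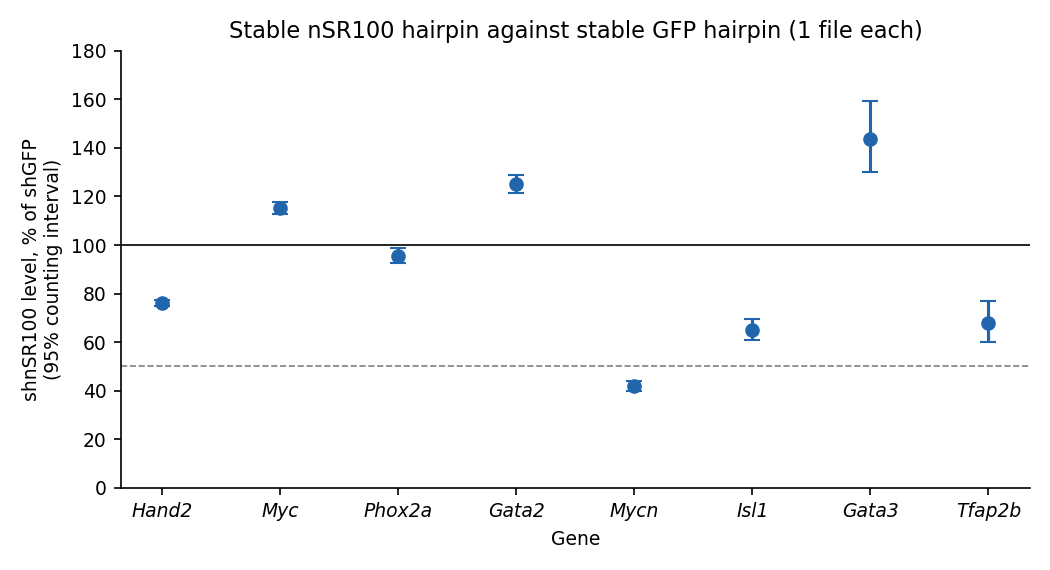
Level of each gene in shnSR100 as a percentage of its level in shGFP, with 95% counting intervals, 1 file per group. The solid line marks equal levels and the dashed line a level 2-fold lower. Mycn at 42.0% is the 1 gene below the dashed line, and Gata3 is the highest at 144%.

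Between the paralogs, Myc exceeded Mycn per unit of length in all 6 files, by a factor that differed between them. The ratio of Myc to Mycn was 6.17 in siU2af65 (95% counting interval 5.92 to 6.42) and 2.27 in siPtbp1, against 2.13 and 3.34 in controls a and b. It was 10.5 in shnSR100, against 3.84 in shGFP. These counting intervals did not overlap, but neither did those of control a (2.047 to 2.21) and control b (3.215 to 3.475). The intervals cover counting error only, and neither hairpin file has a replicate. A gap between intervals therefore does not tell a knockdown from a difference between libraries. The siU2af65 and shnSR100 files stood above the other 4. The summed level of the pair was 130 RPKM in shnSR100 and 130 RPKM in shGFP, while it was 111 RPKM in siU2af65 and 55.0 RPKM in siPtbp1, against 76.1 and 73.9 RPKM in controls a and b. Gata2 exceeded Gata3 in all 6 files, 4.88-fold in siU2af65 and 9.53-fold in siPtbp1, against 13.9-fold and 9.04-fold in controls a and b.

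**Figure D4:**
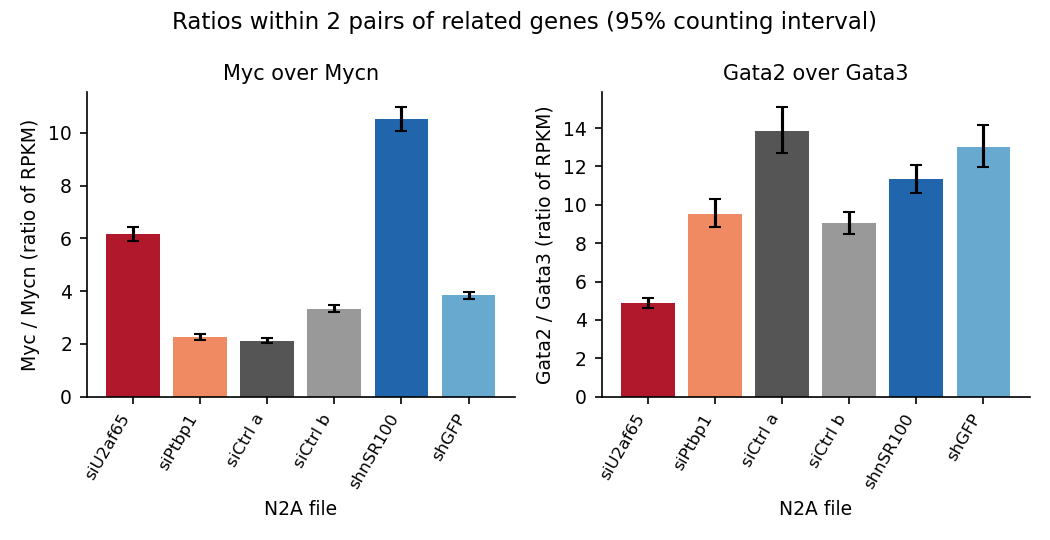
Ratio of RPKM within 2 pairs of related genes in each N2A file, with 95% counting intervals. Myc over Mycn peaks at 10.5 in shnSR100 and 6.17 in siU2af65, and Gata2 over Gata3 is lowest at 4.88 in siU2af65.

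Of 30 other listed regulators of the same circuit 19 were tested. Tfap2a, the paralog of Tfap2b, was at 0.02 to 0.11 RPKM in the 6 files. After U2af65 knockdown edgeR called 1 of the 19 higher and 0 lower, a share near the 5.24% of all genes, and the median log2 difference was 0.22. The called gene was the T-box gene Tbx2, at 38.5 CPM in siU2af65 against 17.5 ± 0.738 CPM in the controls (SD, n = 2), a log2 fold change of 1.14 with an SE of 0.28 (adjusted p = 0.0494 by edgeR). It was called in 6 of 9 alternatives, where its adjusted p reached 0.878. After Ptbp1 knockdown edgeR called 0 of the 19, with a median of -0.15. At an unadjusted p under 0.05, 2 were lower and 0 higher there, beside 2.74% and 1.54% of all genes. DESeq2 and limma called 0. None of the 18 measured members was past 2-fold between the hairpin files.

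Tested genes that partner Myc proteins or control their stability numbered 24, Mycl included. After U2af65 knockdown edgeR called 4 lower and 1 higher, which was Mycl. That stood beside 3.42% and 1.82% of all genes, and the median was -0.10. At an unadjusted p under 0.05, 2 were higher, Mycl among them, and 6 lower, beside 10.5% and 13% of all genes. DESeq2 called 1 higher, again Mycl, and 5 lower, and limma 2 higher, Mycl among them, and 4 lower. Mycl, another gene of the Myc family, stood at 3.77 RPKM in siU2af65 and 0.730 RPKM in siPtbp1, against 0.200 and 0.920 RPKM in controls a and b. It passed the filter on mean RPKM only through the siU2af65 library, where it was high. Its test and its place in the higher counts are therefore not read here. Aurka, the mitotic kinase that shields Mycn protein from degradation, fell by 1.56 (SE 0.25, edgeR adjusted p = 0.0137), with 33.0 CPM in siU2af65 against 97.0 ± 15.4 CPM in the controls (SD, n = 2). Mxd3, a Max partner that opposes Myc, differed by -1.50 (SE 0.34, edgeR adjusted p = 0.0391). Skp2, a ubiquitin ligase subunit that acts on Myc, had a log2 fold change of -1.31 (SE 0.24, edgeR adjusted p = 0.0197). The mitotic kinase gene Plk1 had one of -1.08 (SE 0.23, edgeR adjusted p = 0.0311). Max itself stood at 53.9 RPKM in siU2af65 and 27.6 RPKM in siPtbp1, against 39.5 and 29.1 RPKM in controls a and b, and was not called. After Ptbp1 knockdown edgeR, DESeq2 and limma called 0 of the 24. There 1 was higher and 0 lower at an unadjusted p under 0.05, beside 1.54% and 2.74% of all genes. None was past 2-fold between the hairpin files.

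Known targets of Myc and Mycn in ribosome biogenesis and metabolism had positive differences in 25 of 34 tested genes after U2af65 knockdown, with a median of 0.26, beside a median of 0.00 over all genes tested. edgeR called 0 higher and 1 lower, beside 1.82% and 3.42% of all genes. DESeq2 called 1 higher and 1 lower, and limma on log2(RPKM + 1) 7 higher and 1 lower. At an unadjusted p under 0.05, 8 were higher and 1 lower, beside 10.5% and 13% of all genes. The 1 call was Nme1, a nucleoside diphosphate kinase gene, which fell by 1.87 (SE 0.24, edgeR adjusted p = 0.00791), with 18.4 CPM in siU2af65 against 67.2 ± 4.47 CPM in the controls (SD, n = 2). After Ptbp1 knockdown the median was 0.06 and edgeR, DESeq2 and limma called 0. There 1 was higher and 0 lower at an unadjusted p under 0.05, beside 1.54% and 2.74% of all genes. Between the hairpin files 29 of 35 targets were higher in shnSR100, with a median of 0.18 on the log2(RPKM + 1) scale, beside 0.03 over all genes, and none was past 2-fold.

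Regulators of the mesenchymal state, the other state that neuroblastoma cells can take, were in part expressed. Of 28 listed genes 14 were tested, 14 were at 1 RPKM or more in all 6 files and 10 were under 1 RPKM in all 6. Junb had 25.4 to 75.4 RPKM, Id1 21.2 to 48.3 RPKM and Zeb1 13.5 to 24.6 RPKM over the 6 files, while Prrx1, Twist1, Runx1 and Yap1 were under 1 RPKM in each. After U2af65 knockdown edgeR called 1 of the 14 lower and 0 higher, beside 3.42% and 1.82% of all genes. DESeq2 called 1 lower and 0 higher, and limma 2 higher and 0 lower. At an unadjusted p under 0.05, 3 were higher and 2 lower, beside 10.5% and 13% of all genes. The gene edgeR called was the receptor gene Notch2, with 36.2 CPM in siU2af65 against 84.0 ± 16.0 CPM in the controls (SD, n = 2) and a log2 fold change of -1.22 with an SE of 0.25 (adjusted p = 0.0299 by edgeR), called in 5 of 9 alternatives. After Ptbp1 knockdown the median was -0.38 and edgeR, DESeq2 and limma called 0. There 3 were lower and 0 higher at an unadjusted p under 0.05, beside 2.74% and 1.54% of all genes. That median was -0.61 against control a alone and -0.17 against control b alone. The median after U2af65 knockdown was 0.01, and none of the 17 measured members was past 2-fold between the hairpin files.

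Sympathoadrenal receptor and effector genes, such as those of noradrenaline synthesis and the Ret receptor, were not called by edgeR after either knockdown. After U2af65 knockdown 1 was higher and 4 lower of 19 at an unadjusted p under 0.05, beside 10.5% and 13% of all genes, and DESeq2 called 1 higher and 4 lower and limma 1 higher and 3 lower. After Ptbp1 knockdown all 19 had negative differences, with a median of -0.44, beside 0.01 over all genes. There 5 were lower and 0 higher at an unadjusted p under 0.05, beside 2.74% and 1.54% of all genes, DESeq2 called 0 and limma 2 lower. Against control b alone 17 of the 19 were negative, with a median of -0.19, and the controls differed from each other by a median of -0.17 (control b minus control a). Between the knockdowns edgeR called 1 of the 19, beside 3.62% of all genes (1.09% higher). It was Ddc, which encodes the decarboxylase of dopamine synthesis, at 18.5 CPM in siU2af65 against 2.12 CPM in siPtbp1. The log2 fold change was 3.13 with an SE of 0.51 (adjusted p = 0.0188 by edgeR). In the same contrast 3 of the 24 Myc partner and stability genes and 1 of the 34 targets were called lower, beside 2.54%. There too the knockdown and the letter cannot be told apart. Between the hairpin files 1 gene of 20 was past 2-fold, beside 0.918% of all genes (0.615% lower). It was Chga, the chromogranin A gene, at 68.6 RPKM in shnSR100 against 164 RPKM in shGFP.

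The patterns of the 8 genes over the 6 files were compared by Pearson's r of log2(RPKM + 1), as a description, since the files share a cell line and the hairpin and siRNA cells differ in handling. Isl1 and Tfap2b ran closest together (r = 0.93), followed by Phox2a and Hand2 (r = 0.88). Gata3 ran opposite to Isl1 (r = -0.91) and to Tfap2b (r = -0.89), and Mycn and Myc were not alike (r = -0.24). Likeness was also sought among 11510 genes that averaged 1 RPKM or more. With 6 files and so many genes, high r can arise by chance, and none was tested. Numbl (r = 0.971), Disp2 and Lhfpl5 were nearest to Mycn, and Anxa9 (r = 0.996), Cep63 and Fam129c to Myc. Pank3 (r = 0.991), Marcks and Commd10 were nearest to Isl1, and Cpe (r = 0.995), Scarb1 and Commd1 to Tfap2b. Hist3h2a, Zfc3h1 and Anxa5 were nearest to Phox2a, and Msi1, Phc2 and Creg2 to Hand2. Ep400, Fkbp7 and Stx8 were nearest to Gata2, and Arfgef2, Tmem144 and Ipo8 to Gata3.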

How the data were processed

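The submitters' processing notes name Bowtie, bedtools 2.17.0, hg19 and mm9, with no role attached. The deposited files give a read count and an RPKM per Ensembl gene. The counting rule and strand use are not given in the sources used here. A blank count was read as 0. The length implied by the columns was fixed within 1% across files for 10149 of 10153 genes with at least 200 reads in all 6. Symbols matched 20759 of 22667 identifiers. edgeR 4.0.16 (R 4.3.3) ran its quasi-likelihood test, scaled by TMM, across the 4 siRNA libraries for the 11237 genes that averaged 1 RPKM or more, with Benjamini-Hochberg adjustment and a threshold of 0.05. All 8 genes passed this filter. The control pair gave the fit its 1 residual degree of freedom, beside 8.65 prior degrees of freedom. Each SE was derived from the fold change and its F statistic. Alternatives included limma 3.58.1 and DESeq2 1.42.0. Counting intervals are exact binomial (95%, SciPy 1.17.1). The code was tested on simulated data. True log2 changes of 1 were called in 26.4% of cases for siU2af65 and 17.5% for siPtbp1. Those of 2 were called in 96.3% and 94.2%. A gene not called may therefore still have changed by 2-fold. The labels do not tell whether controls a and b were separate cultures. The p-values therefore rest on the spread of these libraries alone, possibly a technical one. Named genes were the 8 members, the targeted genes, up to 4 called genes per list, comparison and direction, the genes past 2-fold between the hairpin files, and the 3 genes most alike in pattern to each member. Other genes given with levels only were chosen after their values were seen. The members and lists were chosen with earlier results of these data known. The 293T and crosslinking samples were not used here.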

Additional observations from a re-analysis of the deposited data

How the results depend on the processing

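For siU2af65, 205 genes were higher and 384 lower in the reported fit. The counts were 580 and 578 when scaled by library totals alone, 339 and 706 in the DESeq2 Wald test, 655 and 630 in limma on log2(RPKM + 1), 617 and 644 in limma on log2(RPKM + 0.1), 688 and 961 with no filter beyond 1 read, 74 and 183 among genes averaging 5 RPKM or more, and 0 and 0 with shGFP added as a control. For siPtbp1, 0 were higher and 3 lower. The counts were 14 and 72 with library totals, 1 and 19 in DESeq2, 29 and 70 in limma on log2(RPKM + 1), 30 and 76 in limma on log2(RPKM + 0.1), 8 and 91 with no filter, 0 and 1 among genes averaging 5 RPKM or more, and 0 and 0 with shGFP added. Of the 8 genes, siU2af65 had 0 higher and 2 lower. This became 1 higher with library totals, 1 higher and 1 lower in either limma fit, 1 lower among the 6 members averaging 5 RPKM or more, and 0 with shGFP added as a control. Between siU2af65 and siPtbp1, 1 was higher and 2 lower. This became 1 lower in either limma fit, and 0 higher and 0 lower both among those averaging 5 RPKM or more and with shGFP added as a control. After Ptbp1 knockdown Isl1, at -0.08, was at 0.05 with shGFP added as a control and ran from -0.29 to 0.17 with a control left out, and Gata3, at -0.16, ran from -0.40 to 0.13 with a control left out. In no alternative was a member called after Ptbp1 knockdown, and Mycn stayed the 1 gene past 2-fold between the hairpin files in the 3 alternatives run there. The causes of these changes were not tested.

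No paired analysis was possible because each knockdown shares only 1 letter with the controls. Leaving out a control leaves none either, so it gave values and no calls. For siU2af65 the values ran from -0.82 to -0.18 for Mycn, 0.70 to 0.72 for Myc, -1.04 to -0.23 for Phox2a, -1.91 to -1.45 for Isl1 and -2.24 to -2.23 for Tfap2b. Depth limits Tfap2b most, with 140 to 720 reads per file.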
